A study of Danio rerio with 11 samples.

Results

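The nuclear and membrane progestin receptor genes were examined across 3 genotypes of zebrafish (Danio rerio) in fully grown ovarian follicles. The set was defined by gene name and held 10 genes: the nuclear receptor gene pgr, the membrane receptor genes paqr7a, paqr7b, paqr8, paqr5a, paqr5b, paqr6 and paqr9, and the membrane-associated genes pgrmc1 and pgrmc2. Of these, 9 had a row among the 35889 genes of the count table, and 8 passed the filter on low counts that kept 19421 genes for testing. The gene paqr5b was below that filter, and paqr9 was not analysed here. Sequences were not used here, and the genes are given by name and Ensembl identifier.

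Progestins act on ovarian follicles through nuclear and membrane receptors. Pgr is a ligand-activated transcription factor of the follicle cells, and zebrafish females without it do not ovulate although their oocytes can mature. The membrane progestin receptors belong to the PAQR family of proteins that span the membrane several times. In fish oocytes they pass the signal of the maturation-inducing progestin to G proteins, which lowers cAMP and releases meiotic arrest. PGRMC1 and PGRMC2 are haem-binding proteins of the cytochrome b5-like MAPR family, which is unrelated to PAQR, and they have been linked to progestin responses and to cytochrome P450 enzymes. Luteinising hormone, whose beta subunit is encoded by lhb and whose receptor is encoded by lhcgr, is the pituitary signal for maturation and ovulation, while fshb encodes the beta subunit of follicle-stimulating hormone.

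The follicles came from females aged 180 days after fertilisation, were larger than 650 µm after passage over a 600 µm filter, and were picked by hand. The fshb/lhcgr mutant group had 4 libraries from fish that were fshb-/- and lhcgr-/- and also lhb+/- and fshr+/-. The lhb/lhcgr mutant group had 4 libraries from fish that were lhb-/- and lhcgr-/- and also fshb+/- and fshr+/-. The control group had 3 libraries from fish that were fshb+/-, lhb+/-, fshr+/- and lhcgr+/-. All groups thus carried a mutated copy of each of these genes, both mutants shared the loss of lhcgr, and the kind of each allele is not given in the labels. The labels do not say outright that each replicate was a different fish, so the p-values describe spread between samples, which may be technical.

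Library totals lay between 14179252 and 25484718 counts. Messenger RNA of the mutated lhcgr was still present, at 146 ± 30.7 CPM in fshb/lhcgr mutants, 148 ± 35.2 CPM in lhb/lhcgr mutants and 197 ± 122 CPM in controls (SD, n = 4, 4 and 3). CPM are counts of a gene per 1e+06 counts of its library, scaled by TMM factors. Transcripts of lhb averaged 4.03 ± 2.47 CPM in fshb/lhcgr mutants, 3.11 ± 4.46 CPM in lhb/lhcgr mutants and 28.8 ± 9.22 CPM in controls. Neither mutant's lhb difference from controls passed edgeR's quasi-likelihood test (adjusted p = 0.293 for fshb/lhcgr mutants and 0.0539 for lhb/lhcgr mutants), and both passed without lhb/lhcgr mutant 2 (0.0483 and 0.00114). Oocyte markers, 13 genes that include gdf9 and zp3b, summed to 5034 to 5308 CPM in fshb/lhcgr mutants, 3248 to 4841 CPM in lhb/lhcgr mutants and 3842 to 5396 CPM in controls. Granulosa markers, 12 genes that include foxl2a, cyp19a1a and lhcgr itself, summed to 762.1 to 1309 CPM, 588 to 1016 CPM and 780 to 1909 CPM in the same groups. No gene of the oocyte and granulosa lists was at 0 in every library. The libraries thus held RNA of the oocyte and of the follicle wall. In such bulk samples, fewer cells of a type and less RNA per cell cannot be told apart.

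Levels between genes were compared in FPKM, which divide by gene length and by library depth. The nuclear receptor gene pgr was the highest of the 9 genes in every group. It averaged 124 ± 26.1 FPKM in fshb/lhcgr mutants, 69.0 ± 19.6 FPKM in lhb/lhcgr mutants and 161 ± 63.3 FPKM in controls (SD). Its lowest library lay above the highest pgrmc1 library in all 3 groups, and mean pgr was 3.18 times mean pgrmc1 in fshb/lhcgr mutants, 2.22 times in lhb/lhcgr mutants and 4.88 times in controls. Below pgr came pgrmc1 (39.2, 31.0 and 33.1 FPKM in fshb/lhcgr mutants, lhb/lhcgr mutants and controls), pgrmc2 (30.1, 27.0 and 30.9 FPKM) and paqr5a (23.9, 21.4 and 26.2 FPKM). The ranges of neighbours among these 3 genes overlapped in every group, so their order was not separated by the libraries.

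The remaining membrane receptor genes were far lower. In controls paqr7a averaged 6.64 ± 0.17 FPKM (SD) and its range lay below paqr5a and above paqr8. In the mutants paqr7a averaged 0.945 ± 0.566 FPKM (fshb/lhcgr) and 0.641 ± 0.413 FPKM (lhb/lhcgr), and its range overlapped that of paqr8 in both. The genes paqr8, paqr7b and paqr6 averaged between 0.163 and 0.708 FPKM across the groups, and paqr5b averaged 0.0255 FPKM in fshb/lhcgr mutants, 0.0114 FPKM in lhb/lhcgr mutants and 0.140 FPKM in controls. Neighbours among paqr8, paqr7b and paqr6 overlapped in every group.

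**Figure D1:**
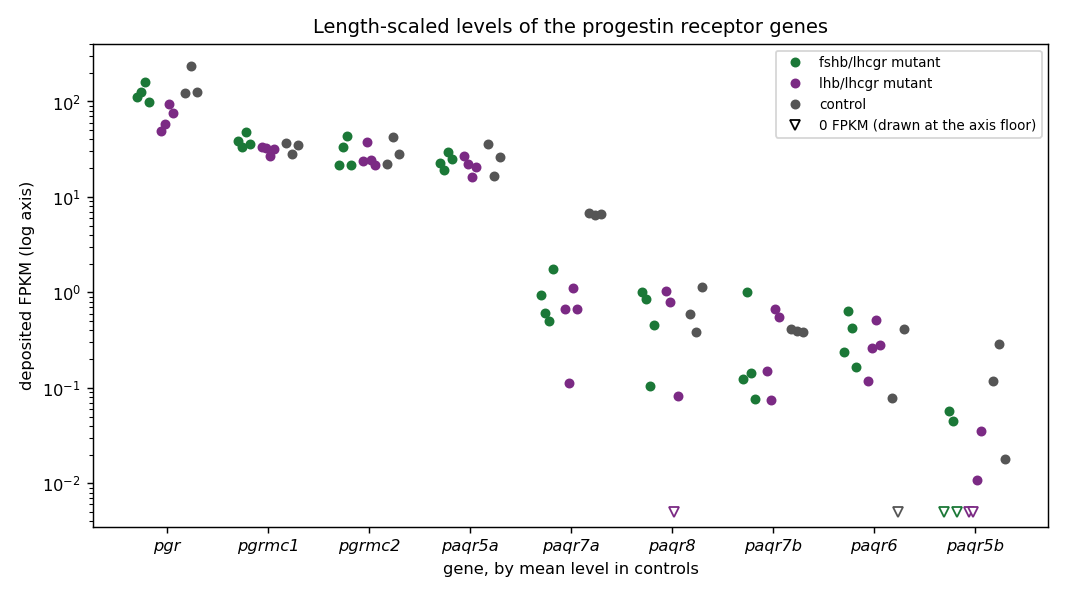
Deposited FPKM of the 9 genes on a log axis, 1 point per library, for fshb/lhcgr mutants, lhb/lhcgr mutants and controls, with open triangles for values of 0. The gene pgr lies highest in every group, and paqr7a lies at 6.46 to 6.81 FPKM in controls but at no more than 1.75 FPKM in any mutant library.

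Among the 6 membrane receptor genes the summed level was carried mostly by paqr5a, an mPRγ gene. It made up 90.9 ± 4.15% of the summed PAQR FPKM in fshb/lhcgr mutants, 92.0 ± 3.15% in lhb/lhcgr mutants and 75.3 ± 6.40% in controls (SD). The share of paqr7a was 3.63 ± 2.06% in fshb/lhcgr mutants, 2.97 ± 2.34% in lhb/lhcgr mutants and 20.5 ± 5.70% in controls. The 6 genes together summed to 26.2 ± 3.46 FPKM in fshb/lhcgr mutants, 23.1 ± 4.30 FPKM in lhb/lhcgr mutants and 34.2 ± 9.82 FPKM in controls, with overlapping ranges. Without paqr5a the sum was 2.28 ± 0.807 FPKM in fshb/lhcgr mutants, 1.78 ± 0.462 FPKM in lhb/lhcgr mutants and 8.05 ± 0.541 FPKM in controls. Without paqr5a and paqr7a it was 1.34 ± 0.873 FPKM in fshb/lhcgr mutants, 1.14 ± 0.143 FPKM in lhb/lhcgr mutants and 1.41 ± 0.482 FPKM in controls, so that the gap in the second sum lay in paqr7a.

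The nuclear receptor gene pgr (ENSDARG00000035966) had 191, 212, 269 and 169 CPM in the 4 fshb/lhcgr mutant libraries. It had 82.0, 99.7, 158 and 126 CPM in the 4 lhb/lhcgr mutant libraries and 206, 398 and 215 CPM in the 3 controls. Every lhb/lhcgr mutant library lay below every control and below every fshb/lhcgr mutant library, while the fshb/lhcgr mutants overlapped the controls. In lhb/lhcgr mutants pgr fell to a 2.34-fold lower level than in controls (log2 difference -1.23, 95% interval -1.80 to -0.66, adjusted p = 0.0183 by edgeR's quasi-likelihood test). Control 2 was the highest library, and without it the log2 difference was -0.85 (adjusted p = 0.0468). The call was lost without lhb/lhcgr mutant 4 (log2 difference -1.27, adjusted p = 0.0551). Over the 11 alternatives other than leaving out 1 library, the adjusted p lay between 0.000489 and 0.0451. These include the fit without both lhb/lhcgr mutants 3 and 4, which was added after seeing the data.

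Between fshb/lhcgr mutants and controls the pgr log2 difference was -0.38, with a 95% interval of -0.95 to 0.19 (edgeR adjusted p = 0.613). Leaving out control 2 put it at -0.0031 (adjusted p = 0.998). The direct test of fshb/lhcgr mutants against lhb/lhcgr mutants gave 0.85, a 1.80-fold higher level with a 95% interval of 0.32 to 1.39, which missed the threshold (adjusted p = 0.0917). That comparison passed without control 2 (0.0369), with DESeq2 (0.0202) and when only these 2 groups were fitted (0.0376). Whether pgr differed between the mutants therefore turned on the fit. In the authors' deposited table, pgr had a log2 fold change of -1.23 in lhb/lhcgr mutants over controls (unadjusted p = 4.98e-05) and of -0.38 in fshb/lhcgr mutants over controls (0.176).

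Granulosa marker sums varied beside pgr. Control 2 had the highest marker sum, 1909 CPM, and the highest pgr, and lhb/lhcgr mutant 1 had the lowest sum, 588 CPM, and the lowest pgr. The ratio of pgr counts to the summed counts of the 12 markers was 0.184, 0.204, 0.206 and 0.222 in fshb/lhcgr mutants. It was 0.140, 0.134, 0.156 and 0.139 in lhb/lhcgr mutants and 0.219, 0.209 and 0.276 in controls. On this ratio the lhb/lhcgr mutants again lay wholly below both other groups. The mean log2 ratio differed by -0.71 between lhb/lhcgr mutants and controls (-2.82 ± 0.09 against -2.10 ± 0.22, SD, exact permutation p = 0.0571, the smallest that 4 against 3 libraries allow). It was 0.52 higher in fshb/lhcgr mutants than in lhb/lhcgr mutants (-2.297 ± 0.111 against -2.82 ± 0.09, exact permutation p = 0.0286, the smallest for 4 against 4). Neither difference passed after adjustment over the 3 comparisons (0.0857 each), and with these smallest p-values no outcome could have passed. The ratio was chosen after its parts had been seen, and the marker list contains lhcgr and fshr, of which fshr itself rose in lhb/lhcgr mutants (46.4 ± 5.29 CPM, against 12.4 ± 8.98 CPM in controls, adjusted p = 0.0220).

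The membrane receptor gene paqr7a (ENSDARG00000100462), an mPRα gene, had 15, 10, 7 and 31 counts in fshb/lhcgr mutants. It had 12, 2, 33 and 12 counts in lhb/lhcgr mutants and 110, 100 and 116 counts in controls. All 8 mutant libraries lay below all 3 controls, both in counts and in CPM, and the mutants overlapped each other. The level averaged 1.04 ± 0.62 CPM in fshb/lhcgr mutants, 0.699 ± 0.451 CPM in lhb/lhcgr mutants and 7.26 ± 0.14 CPM in controls (SD). In lhb/lhcgr mutants paqr7a fell to a 10.1-fold lower level than in controls (log2 difference -3.34, 95% interval -4.63 to -2.05, edgeR adjusted p = 0.00878). That call was kept under all 11 alternatives other than leaving out 1 library, among them the fit without both lhb/lhcgr mutants 3 and 4. It was also kept in each of the 11 fits without 1 library. In those fits the log2 difference ran from -3.77 to -3.00 and the adjusted p from 0.00862 to 0.0393.

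In fshb/lhcgr mutants paqr7a was 6.92-fold lower than in controls by the fitted log2 difference of -2.79 (95% interval -4.06 to -1.52), which missed the threshold in the same edgeR test (adjusted p = 0.120). In that comparison 0.0721% of all genes were called. The adjusted p was 0.00105 with DESeq2 and 0.0484 without lhb/lhcgr mutant 2. Over the other alternatives that left out no single library it lay between 0.0632 and 0.146, and over the other single libraries left out it reached 0.288. The mutants did not separate in the direct test (log2 difference 0.55, 95% interval -0.67 to 1.76, adjusted p = 0.670), so paqr7a was not shown to differ between them. The authors' deposited table gave paqr7a a log2 fold change of -2.80 in fshb/lhcgr mutants over controls (unadjusted p = 2.98e-08) and of -3.35 in lhb/lhcgr mutants over controls (6.83e-10).

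**Figure D2:**
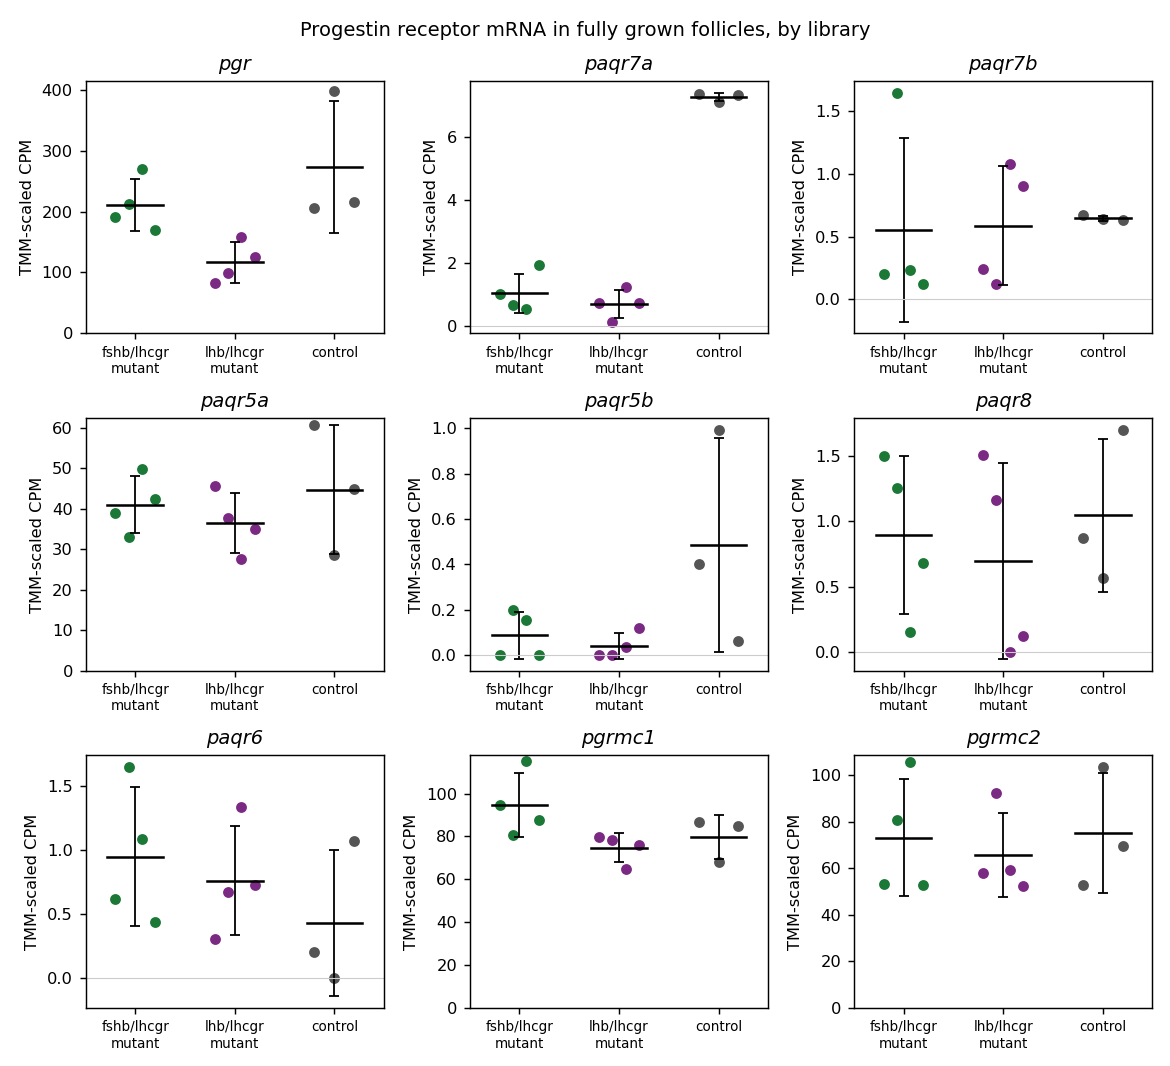
TMM-scaled CPM of each of the 9 genes with a row, 1 point per library, with the mean as a bar and the SD as whiskers, for fshb/lhcgr mutants, lhb/lhcgr mutants and controls. The paqr7a points of both mutants lie at or below 1.92 CPM and the controls at 7.10 to 7.36 CPM, while in pgr only the lhb/lhcgr mutants lie wholly below the controls.

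The close paralog paqr7b (ENSDARG00000034907), the other mPRα gene, had 3, 25, 3 and 2 counts in fshb/lhcgr mutants, 4, 2, 29 and 15 counts in lhb/lhcgr mutants and 10, 9 and 10 counts in controls. The groups overlapped, and the log2 difference from controls was -0.22 in fshb/lhcgr mutants (95% interval -2.36 to 1.92) and -0.12 in lhb/lhcgr mutants (-2.24 to 2.00). At these low counts the intervals held differences, in either direction, larger than that of pgr. Within a library, the ratio of paqr7a to paqr7b counts, with 0.5 added to each, was 4.43, 0.412, 2.14 and 12.6 in fshb/lhcgr mutants, 2.78, 1.00, 1.14 and 0.806 in lhb/lhcgr mutants and 10.5, 10.6 and 11.1 in controls. All lhb/lhcgr mutants lay below the controls, whereas fshb/lhcgr mutant 4 lay above them. The mean log2 ratio differed by -3.09 between lhb/lhcgr mutants and controls (0.34 ± 0.79 against 3.42 ± 0.04, SD, exact permutation p = 0.0571, the smallest possible, and 0.457 after adjustment over 12 ratio tests). Between fshb/lhcgr mutants and controls it differed by -2.02 (1.41 ± 2.08 against 3.42 ± 0.04, exact permutation p = 0.229).

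The gene paqr5a (ENSDARG00000041145) had 38.8, 32.9, 49.9 and 42.5 CPM in fshb/lhcgr mutants, 45.7, 37.7, 27.6 and 35.0 CPM in lhb/lhcgr mutants and 60.6, 28.7 and 44.9 CPM in controls. The groups overlapped, with the lowest and the highest control spanning nearly the whole range. Its log2 difference from controls was -0.12 in fshb/lhcgr mutants (95% interval -0.66 to 0.41) and -0.29 in lhb/lhcgr mutants (-0.83 to 0.24), with edgeR adjusted p of 0.882 and 0.510. Its paralog paqr5b (ENSDARG00000052688) had 0, 3, 2 and 0 counts in fshb/lhcgr mutants, 0, 0, 1 and 2 counts in lhb/lhcgr mutants and 6, 14 and 1 counts in controls. Fitted without the filter on low counts, its log2 difference was -2.38 in fshb/lhcgr mutants (adjusted p = 0.640) and -3.37 in lhb/lhcgr mutants (adjusted p = 0.304), and neither passed. The paqr5a to paqr5b log2 ratio differed from controls by 2.00 in fshb/lhcgr mutants (8.94 ± 1.60 against 6.94 ± 2.05, exact permutation p = 0.229) and by 2.47 in lhb/lhcgr mutants (9.41 ± 1.25 against 6.94 ± 2.05, SD, exact permutation p = 0.114).

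The mPRβ gene paqr8 (ENSDARG00000088828) had 22, 19, 2 and 11 counts in fshb/lhcgr mutants, 25, 19, 0 and 2 counts in lhb/lhcgr mutants and 13, 8 and 27 counts in controls. The mPRδ gene paqr6 (ENSDARG00000041483) had 9, 25, 14 and 7 counts in fshb/lhcgr mutants, 5, 11, 36 and 12 counts in lhb/lhcgr mutants and 3, 0 and 17 counts in controls. Both genes overlapped between all groups, and 0 counts in a library allow up to 3 counts. In lhb/lhcgr mutants, the 95% interval of the log2 difference from controls ran from -2.94 to 1.73 for paqr8. For paqr6 it ran from -1.30 to 2.95. Both intervals held changes of several-fold, at low counts that also varied between libraries.

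Of the membrane-associated genes, pgrmc1 (ENSDARG00000054172) had 94.7, 80.7, 115 and 87.8 CPM in fshb/lhcgr mutants, 79.8, 78.3, 65.0 and 76.1 CPM in lhb/lhcgr mutants and 86.7, 67.9 and 84.8 CPM in controls. All fshb/lhcgr mutants lay above all lhb/lhcgr mutants, and the controls overlapped both. The log2 difference between the mutants was 0.34 (95% interval 0.02 to 0.66, unadjusted p = 0.0403 in edgeR's test), and it did not pass after adjustment over all genes (0.251). Against controls, pgrmc1 differed by 0.25 in fshb/lhcgr mutants (-0.10 to 0.60) and by -0.09 in lhb/lhcgr mutants (-0.44 to 0.25). The gene pgrmc2 (ENSDARG00000030237) had 53.3, 80.8, 106 and 53.0 CPM in fshb/lhcgr mutants, 57.8, 92.2, 59.4 and 52.5 CPM in lhb/lhcgr mutants and 52.9, 103 and 69.5 CPM in controls. Its spread within each group was wider than any difference between groups, which was -0.04 in fshb/lhcgr mutants (-0.66 to 0.58) and -0.20 in lhb/lhcgr mutants (-0.82 to 0.42) relative to controls.

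The ratio of pgrmc1 to pgrmc2 counts spanned 0.998 to 1.78 in fshb/lhcgr mutants, 0.849 to 1.45 in lhb/lhcgr mutants and 0.657 to 1.64 in controls, and its mean log2 differed by 0.20 between the mutants (0.42 ± 0.42 against 0.22 ± 0.35, SD, exact permutation p = 0.514). The log2 ratio of pgr to the summed counts of the 6 PAQR genes averaged 2.23 ± 0.25 in fshb/lhcgr mutants, 1.54 ± 0.67 in lhb/lhcgr mutants and 2.299 ± 0.965 in controls (SD). It differed from controls by -0.07 in fshb/lhcgr mutants (exact permutation p = 0.857) and by -0.76 in lhb/lhcgr mutants (exact permutation p = 0.343), and between the mutants by 0.68 (exact permutation p = 0.114). No ratio test among the 12 passed after adjustment, and none could have. The smallest possible p was 0.0571 for 4 against 3 libraries and 0.0286 for 4 against 4. With these limits, adjustment over 12 tests cannot give a value under 0.05, so the adjusted values decide nothing.

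**Figure D3:**
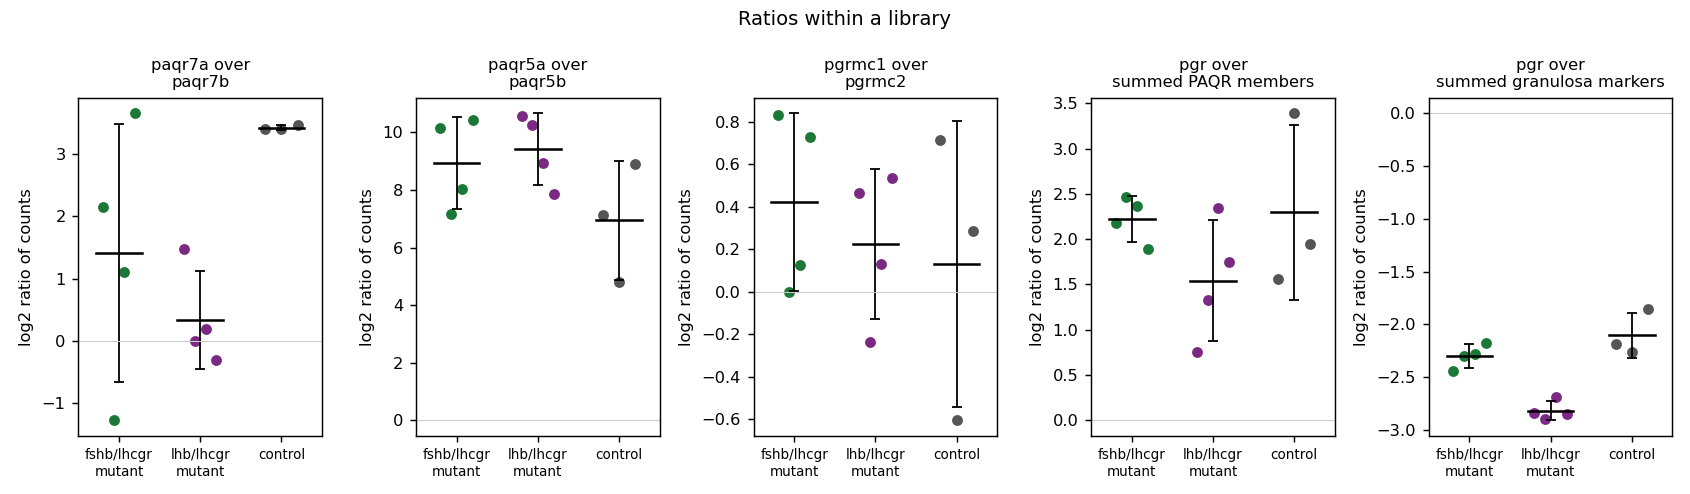
Log2 ratios of counts within each library (paqr7a to paqr7b, paqr5a to paqr5b, pgrmc1 to pgrmc2, pgr to the summed PAQR genes and pgr to the summed granulosa markers), 1 point per library with mean and SD, for fshb/lhcgr mutants, lhb/lhcgr mutants and controls. The control paqr7a to paqr7b ratios lie close together at 3.42 ± 0.04, and the lhb/lhcgr mutants lie lowest on the ratio of pgr to granulosa markers.

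In lhb/lhcgr mutants against controls, 2 of the 8 tested receptor genes were called, both lower, where 4.45% of all genes tested were called lower and 7.34% in either direction. These 2 genes were also the only ones of the 8 that lay wholly below the controls, a pattern held by 11.6% of all genes. The median log2 difference was -0.25 over the 8 genes and 0.01 over all genes. In fshb/lhcgr mutants against controls 0 of the 8 were called by edgeR, where 0.0721% of all genes were called, with 1 at an unadjusted p under 0.05 (11.8% of all genes). DESeq2 called 1 of the 8, paqr7a, and over all genes 124 higher and 154 lower. There, 1 gene (paqr7a) lay wholly below the controls, a pattern held by 5.16% of all genes. In fshb/lhcgr mutants against lhb/lhcgr mutants 0 of the 8 were called by edgeR, where 2.37% of all genes were called, with 2 at an unadjusted p under 0.05 (18.0% of all genes). DESeq2 called 1 of the 8, pgr, and over all genes 776 higher and 627 lower. In that comparison pgr and pgrmc1 lay wholly higher, a pattern held by 6.54% of all genes. Both comparisons with controls use the same 3 control libraries.

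**Figure D4:**
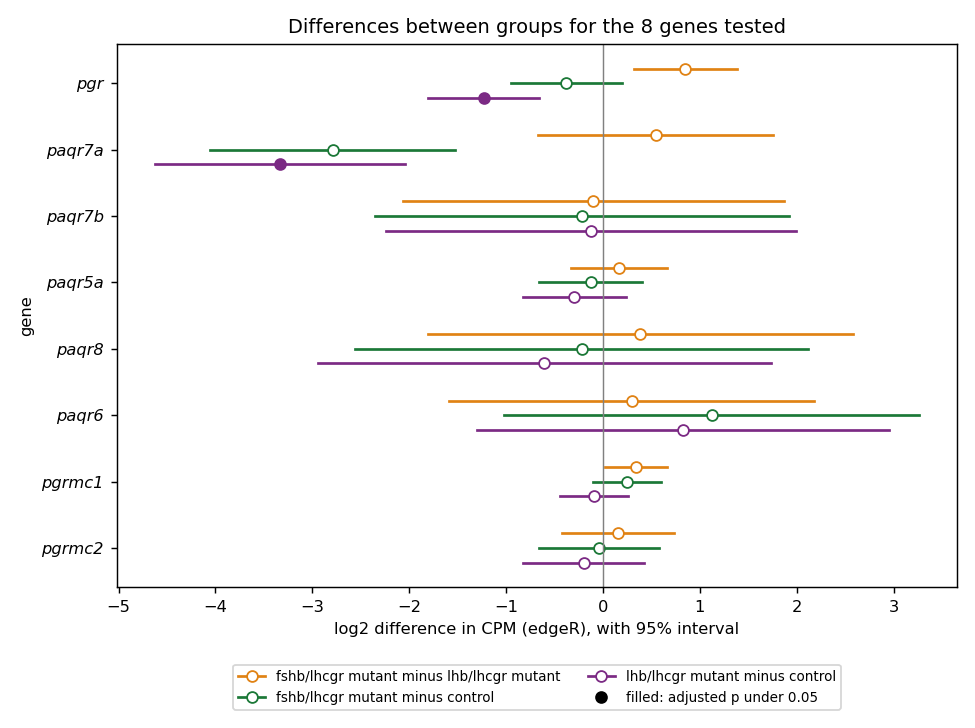
Log2 differences in CPM of the 8 tested genes with 95% intervals from edgeR, for fshb/lhcgr mutants minus lhb/lhcgr mutants, fshb/lhcgr mutants minus controls and lhb/lhcgr mutants minus controls, with filled points for an adjusted p under 0.05. The only filled points are paqr7a (-3.34) and pgr (-1.23) in lhb/lhcgr mutants minus controls.

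Genes that make the ligand were examined as 12 tested members of a progestin synthesis list. Against controls, edgeR called 2 of the 12 lower in lhb/lhcgr mutants and 0 higher, where it called 4.45% of all genes lower. The list median was 0.27. An unadjusted p under 0.05 was reached by 7 of the 12, and by 24.9% of all genes. Of these, star, cbr1 and hsd3b1 were lower and cyp11a1, fdx1, cyp17a2 and cbr1l were higher. The cbr1 paralog cbr1l had 43.4 ± 18.9 CPM in lhb/lhcgr mutants, against 11.5 ± 4.13 CPM in controls (log2 difference 1.92, edgeR adjusted p = 0.109). The gene star, whose protein moves cholesterol into mitochondria at the start of steroid synthesis, fell to 8.03 ± 2.91 CPM in lhb/lhcgr mutants, against 25.6 ± 9.01 CPM in controls (log2 difference -1.67, adjusted p = 0.0309). The carbonyl reductase gene cbr1 fell to 39.1 ± 14.5 CPM, against 81.1 ± 17.4 CPM in controls (-1.06, adjusted p = 0.0234). Both were also higher by edgeR in fshb/lhcgr mutants than in lhb/lhcgr mutants, where 2.37% of all genes were called in either direction. There star had 25.1 ± 15.5 CPM (log2 difference 1.65, edgeR adjusted p = 0.0458) and cbr1 84.3 ± 12.5 CPM (1.11, edgeR adjusted p = 0.0246). In lhb/lhcgr mutants against controls DESeq2 called 1 of the 12 higher and 2 lower, and over all genes 1198 higher and 1531 lower. Between the mutants DESeq2 called 2 of the 12 higher and 1 lower, and over all genes 776 higher and 627 lower. The gene hsd20b2 of the same list was below the filter on low counts. It averaged 0.440 ± 0.311 CPM in fshb/lhcgr mutants, 0.573 ± 0.178 CPM in lhb/lhcgr mutants and 0.490 ± 0.250 CPM in controls. Of the 11 fits that each left out a library, the star call was lost in 5 against controls and in 7 between the mutants (adjusted p up to 0.140), and the cbr1 call in 5 of each (up to 0.0962).

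Ovulation genes that act with or after Pgr gave 26 tested members. In lhb/lhcgr mutants against controls 1 rose and 2 fell by edgeR, where 7.34% of all genes were called, with a list median of 0.24. DESeq2 called 7 of the 26 higher and 2 lower, and over all genes 1198 higher and 1531 lower. The prostaglandin synthase gene ptgs2b rose to 43.0 ± 7.18 CPM, against 15.9 ± 4.42 CPM in controls (log2 difference 1.43, adjusted p = 0.00947). The extracellular protease gene adamts1 fell to 4.09 ± 1.32 CPM, against 20.3 ± 11.8 CPM in controls (-2.31, adjusted p = 0.0129), and the hypoxia-inducible factor gene epas1a fell to 5.14 ± 1.63 CPM, against 14.96 ± 1.03 CPM in controls (-1.54, adjusted p = 0.0189). The adamts1 and epas1a calls were lost without control 1 (0.0624 and 0.0503). Between fshb/lhcgr mutants and lhb/lhcgr mutants, 1 of the 26 was higher and 3 were lower by edgeR, where 2.37% of all genes were called, with a list median of -0.59. DESeq2 called 3 of the 26 higher and 7 lower, and over all genes 776 higher and 627 lower. The prostaglandin transporter gene slco2a1 was at 1.096 ± 0.413 CPM in fshb/lhcgr mutants, against 12.1 ± 4.56 CPM in lhb/lhcgr mutants (-3.45, adjusted p = 0.00193). The G protein regulator gene rgs2 was at 38.3 ± 18.1 CPM, against 135 ± 49.5 CPM in lhb/lhcgr mutants (-1.81, adjusted p = 0.0234), and ptgs2b at 18.4 ± 4.46 CPM, against 43.0 ± 7.18 CPM (-1.23, adjusted p = 0.0182). The gene epas1a was higher, at 13.5 ± 5.44 CPM, against 5.14 ± 1.63 CPM in lhb/lhcgr mutants (1.39, adjusted p = 0.0391). Between the mutants, single libraries left out cost the call in 5 of 11 fits for rgs2, 3 for ptgs2b and 6 for epas1a, but in 0 for slco2a1. The epas1a calls were also lost when a trend of the differences with gene length was removed (log2 difference -1.23 with an adjusted p of 0.0592 against controls, and 1.27 with 0.0585 between the mutants). Leukocyte markers (macrophage and neutrophil, 11 rows) summed to 34.2 to 156 CPM in fshb/lhcgr mutants, 26.0 to 1094 CPM in lhb/lhcgr mutants and 14.8 to 690 CPM in controls, with medians of 80.6, 933 and 45.2 CPM. In the lhb/lhcgr mutants 3 of the 4 libraries stood at 917 to 1094 CPM, and in the controls 2 of the 3 stood at 14.8 and 45.2 CPM. Erythrocyte markers (8 rows) summed to 97.3 to 180 CPM in fshb/lhcgr mutants, 64.1 to 139 CPM in lhb/lhcgr mutants and 28.9 to 84.02 CPM in controls, so that the fshb/lhcgr mutants lay wholly above the controls. The part of these blood cells in the results was not tested.

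Chaperones and coregulators of nuclear receptors gave 19 tested members, of which 4 fell in lhb/lhcgr mutants and 0 rose by edgeR, where 4.45% of all genes were called lower, with a list median of -0.15. DESeq2 called 7 of the 19, all lower, and over all genes 1198 higher and 1531 lower. All 4 genes called by edgeR encode corepressors or acetyltransferase coactivators: ncor1 (log2 difference -0.86, adjusted p = 0.0361), ep300a (-0.80, 0.0440), ep300b (-0.68, 0.0304) and crebbpb (-0.92, 0.00806). All 4 calls were lost when the length trend was removed (adjusted p of 0.139 to 0.396), whereas pgr (-1.39, adjusted p = 0.0175) and paqr7a (-3.62, adjusted p = 0.00815) kept theirs in that fit. The calls of ncor1, ep300a and ep300b were also lost in 6, 8 and 5 of the 11 fits without a library. The list median between fshb/lhcgr mutants and controls was -0.46. EdgeR called 0 of the 19, with 8 at an unadjusted p under 0.05, which 11.8% of all genes reached. DESeq2 called 2 of the 19, both lower, and over all genes 124 higher and 154 lower. There ep300a (log2 difference -0.75), ep300b (-0.62) and crebbpb (-0.73) lay wholly below the controls without being called by edgeR (adjusted p of 0.257, 0.225 and 0.139). Lying wholly below the controls was a pattern held by 5.16% of all genes in that comparison. The HSP90 gene hsp90ab1, whose protein holds steroid receptors in a ligand-ready state, had 1850 ± 169 CPM in fshb/lhcgr mutants, 1943 ± 296 CPM in lhb/lhcgr mutants and 2159 ± 332 CPM in controls, and was not called.

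A membrane progestin signalling list gave 35 tested members. It spanned genes of G proteins, adenylate cyclases, phosphodiesterases, maturation kinases, the EGF and IGF families and the like. Of these 35 members, 1 fell in lhb/lhcgr mutants against controls and 0 rose by edgeR, where 4.45% of all genes were called lower. The list median was -0.11. DESeq2 called 1 of the 35 higher and 2 lower, and over all genes 1198 higher and 1531 lower. The gene called by edgeR was pde4ba, for an enzyme that breaks down cAMP. It had 232 ± 38.9 CPM in fshb/lhcgr mutants, 203 ± 84.9 CPM in lhb/lhcgr mutants and 528 ± 97.2 CPM in controls. All libraries of both mutants lay below all controls. That pattern was held by 11.6% of all genes in lhb/lhcgr mutants and by 5.16% in fshb/lhcgr mutants. The pde4ba difference from controls was called in lhb/lhcgr mutants (log2 difference -1.37, edgeR adjusted p = 0.0152) and not in fshb/lhcgr mutants (-1.18, unadjusted p = 0.000918, adjusted p = 0.167). Among 11 PGRMC partners edgeR called 1 lower in lhb/lhcgr mutants against controls, where it called 4.45% of all genes lower. DESeq2 called 3 of the 11 lower there, and 1531 of all genes lower. The gene called by edgeR was porb, for the reductase that feeds electrons to cytochrome P450 enzymes. It was at 110 ± 15.7 CPM in lhb/lhcgr mutants, against 198 ± 56.3 CPM in controls (-0.85, edgeR adjusted p = 0.0249). Its call was lost in 3 of the 11 fits without a library, which left out control 1 (0.106) or else number 1 or 4 of the lhb/lhcgr mutants. Between the mutants edgeR called 0 of the 11 partners. An unadjusted p under 0.05 was reached by 6 of them, some higher and some lower, and by 18.0% of all genes. DESeq2 called 2 of the 11 there, both higher in fshb/lhcgr mutants, and over all genes 776 higher and 627 lower. EdgeR called none of the 10 tested PAQR and MAPR relatives in the 3 comparisons. In lhb/lhcgr mutants against controls 2 of the 10 had an unadjusted p under 0.05, which 24.9% of all genes reached. There DESeq2 called 1 of the 10, lower, and 1531 of all genes lower. In fshb/lhcgr mutants against controls edgeR called 0 genes in these 6 lists, with 21 of their 113 tested genes at an unadjusted p under 0.05, which 11.8% of all genes reached. The DESeq2 fit called 5 of the 113, all lower, and over all genes 124 higher and 154 lower. Of the 17 calls among list genes in the 3 comparisons, 4 were kept in every fit without a single library: ptgs2b, crebbpb and pde4ba in lhb/lhcgr mutants against controls, and slco2a1 between the mutants.

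The summed levels of markers of other follicle wall cells were set beside these receptor values, without a test of the sums. Stroma markers, 10 genes, summed to 326 to 530 CPM in fshb/lhcgr mutants, 176 to 250 CPM in lhb/lhcgr mutants and 202 to 316 CPM in controls. Endothelial markers, 11 genes, summed to 117 to 247 CPM in fshb/lhcgr mutants, 96.3 to 109 CPM in lhb/lhcgr mutants and 147 to 259 CPM in controls. Theca markers, 7 genes, summed to 282 to 366 CPM in fshb/lhcgr mutants, 218 to 301 CPM in lhb/lhcgr mutants and 221 to 623 CPM in controls. The stroma sums of fshb/lhcgr mutants lay wholly above both other groups and the endothelial sums of lhb/lhcgr mutants wholly below them, while the theca sums overlapped between all groups and the stroma sums of lhb/lhcgr mutants overlapped the controls. The lhb/lhcgr mutants had the lowest median sum for each of these wall lists, but the stroma gene pdgfrb averaged 10.3 ± 2.09 CPM in fshb/lhcgr mutants, 44.3 ± 42.6 CPM in lhb/lhcgr mutants and 14.7 ± 7.73 CPM in controls. Its differences passed in none of the 3 comparisons (edgeR adjusted p of 0.0808 to 0.790). Other genes of these lists did pass. In lhb/lhcgr mutants against controls edgeR called 3 of 9 stroma, 2 of 10 endothelial and 1 of 7 theca genes, all lower. There 4.45% of all genes were called lower. Between the mutants it called 5, 2 and 1 of them, all higher in fshb/lhcgr mutants, where 2.37% of all genes were called in either direction. No gene of the 3 lists was at 0 in every library. The part of these cell types in the pgr and paqr7a results was not tested.

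Patterns over the 11 libraries were compared among 12603 named genes with a mean of at least 1 CPM. Genes with no symbol, or with one that matched patterns for clone or locus placeholders, were left out. These patterns also dropped some named genes, such as those whose symbol holds a dot or begins with si or im. Closest to pgr were s100u (r = 0.978), hpgd (0.973), psme1 (0.971), plxna4 (0.971) and sec24d (0.964). Within groups, after each group's mean was subtracted, their r with pgr was 0.916 to 0.953. The gene hpgd encodes an enzyme that inactivates prostaglandins. Those closest to paqr7a were PRRC2B (0.936), zc3h4 (0.934), ptk7a (0.914), grip1 (0.913) and bmp1a (0.910), with r of 0.600 to 0.763 within groups. These values are Pearson r of log2 CPM, the points share libraries and groups, and they are given as a description. The likeness to pgr was nearly as high within groups as over all libraries, while that to paqr7a was lower within groups. However, paqr7a had only 7 to 31 counts in fshb/lhcgr mutant libraries and 2 to 33 in lhb/lhcgr mutant libraries. No library had fewer than 1359 counts of pgr. The part of this difference in depth in the lower r was not tested.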

How the data were processed

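Raw gene counts were used as deposited by the authors. The deposited FPKM values are per kilobase of 1 fixed gene length and were used for levels between genes. The authors' deposited tables give mean normalized counts (a signal scale), log2 fold changes and unadjusted p-values. DESeq2 1.20.0 is named in the submitters' processing notes. The aligner, counter, strand setting and genome build were not given in the sources used here. How reads of paralogs or antisense genes were split is thus unknown.

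Counts were tested in R 4.3.3 with edgeR 4.0.16: filterByExpr (minimum count 10, total 15), TMM scaling and a robust quasi-likelihood fit of 3 group means over 11 libraries. The common biological coefficient of variation was 0.384. P-values are 2-sided, adjusted by Benjamini-Hochberg over 19421 genes, and called under 0.05. Similarity used log2 CPM with a prior count of 2. Ratios of 1 gene to another added 0.5 to each count. The pgr to PAQR ratio added 0.5 to pgr and 0.5 to the summed counts, and the pgr to granulosa ratio added nothing. All ratios were compared by exact 2-sided permutation tests (SciPy 1.17.1).

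Alternatives were other scaling and filters, DESeq2 1.42.0, limma 3.58.1 (voom), the replicate number as a block, fits of only the groups compared, removal of the gene length trend and each library left out. Leaving out lhb/lhcgr mutants 3 and 4 together and the pgr to granulosa ratio were added after seeing the data. The closest libraries, lhb/lhcgr mutants 3 and 4, differed by 34.1 times the sampling variance and were kept as separate samples. Their log2 CPM correlated at r = 0.979, the highest of all pairs. After group means were subtracted their r was 0.367, the only positive value within a group. The variance ratio cannot show whether these samples came from different fish, and this was not tested. DESeq2 left some tested genes without an adjusted p, such as paqr7b and paqr6 in lhb/lhcgr mutants against controls. Its totals over all genes are therefore given without a share, and its list counts were not compared with one. The edgeR test was also checked on simulated counts.

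The receptor genes and all lists were chosen with earlier results of these data known. All receptor genes were named, and of other lists up to 5 called genes per list and comparison. Also named were the 5 genes most like pgr and paqr7a, and checks of the labels. The genes hsd20b2, hsp90ab1, fshr, hsd3b1, cyp11a1, fdx1, cyp17a2 and cbr1l were chosen after their values were seen.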

Additional observations from a re-analysis of the deposited data

Results flagged for a closer look

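The membrane receptor gene paqr7b stood out in fshb/lhcgr mutant 2. That library had 1.65 CPM (25 counts), while the other 3 fshb/lhcgr mutants had 2 to 3 counts. The gap to the nearest library took 0.929 of the group's range, above Dixon's 95% critical value for 4 samples. It was the only such library in 26 groups of 4 values examined (receptor genes and ratios), and chance flags about 1 in 20 such groups.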

How the results depend on the processing

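The paqr7a call in lhb/lhcgr mutants minus controls was kept under every alternative run, and the pgr call under all but the fit without lhb/lhcgr mutant 4. Without single libraries, genes called in lhb/lhcgr mutants minus controls numbered 90 to 526 higher and 207 to 922 lower (1 to 2 receptor genes). In fshb/lhcgr mutants minus controls they numbered 0 to 7 higher and 1 to 18 lower (0 to 1 receptor genes), and in fshb/lhcgr minus lhb/lhcgr mutants 75 to 504 higher and 29 to 291 lower (0 to 1 receptor genes). As reported, the counts were 562 and 864, 3 and 11, and 282 and 178.

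In lhb/lhcgr mutants minus controls, genes called higher and lower numbered 1198 and 1531 with DESeq2, 306 and 511 with only the groups compared, and 18 and 111 without lhb/lhcgr mutants 3 and 4. Genes called higher numbered 848 with library size only and 299 with the length trend removed. In fshb/lhcgr mutants minus controls, the higher and lower counts were 124 and 154 with DESeq2 (1 receptor gene), 5 and 19 without a filter and 0 and 5 with limma-voom. There, library size only called 17 lower, only the groups compared 6 higher, and removal of the length trend 1 higher. In fshb/lhcgr minus lhb/lhcgr mutants, the counts were 776 and 627 with DESeq2 (1 receptor gene), 567 and 322 with only the groups compared (1 receptor gene) and 23 and 4 without lhb/lhcgr mutants 3 and 4, and library size only called 318 lower. Library size only moved the median of all genes to 0.12 in lhb/lhcgr mutants minus controls and to -0.15 between the mutants. The cause of these shifts was not tested, except that fits with fewer libraries hold fewer samples.

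Of 10 same-number pairs, 3 correlated above 0.1 after group means were subtracted (range -0.0844 to 0.122). Pairs of different groups with different numbers ran from -0.187 to 0.144. The numbers are those of the sample titles and not of the library names, so this cannot settle whether samples were paired. With the replicate block, 324 genes were called higher in lhb/lhcgr mutants minus controls and 6 lower in fshb/lhcgr mutants minus controls, where pgrmc2 turned to 0.085.

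Directions turned only in results that were not called. With library size only, pgrmc1 was 0.015 in lhb/lhcgr mutants minus controls, and in FPKM the pgr to PAQR ratio was 0.020 in fshb/lhcgr mutants minus controls. Without lhb/lhcgr mutants 3 and 4, paqr8 was 0.35 in lhb/lhcgr mutants minus controls, and between the mutants paqr7b was 1.56, paqr8 -0.56, paqr5a -0.023, pgrmc2 -0.037, lhcgr 0.30 and lhb -0.45. Without single libraries, lhb/lhcgr mutants minus controls ran from -0.60 to 0.21 for paqr7b, -0.41 to 0.098 for pgrmc2, -0.71 to 0.21 for lhcgr and -0.28 to 0.38 for the pgrmc1 to pgrmc2 ratio. Minus controls, fshb/lhcgr mutants ran from -1.76 to 0.11 for paqr7b, -0.58 to 0.33 for paqr8, -0.36 to 0.16 for paqr5a, -0.27 to 0.26 for pgrmc2, -0.71 to 0.19 for lhcgr, -0.079 to 0.58 for the pgrmc1 to pgrmc2 ratio and -0.44 to 0.47 for the pgr to PAQR ratio. Between the mutants the ranges were -1.64 to 0.38 for paqr7b, -0.047 to 1.11 for paqr8, -0.12 to 0.73 for paqr6, -0.070 to 0.37 for pgrmc2, -0.13 to 0.12 for lhcgr, -0.093 to 2.21 for lhb and -0.99 to 0.12 for the paqr5a to paqr5b ratio. The genes paqr7b, paqr8, paqr6 and paqr5b had at most 36 counts in a library. Their counts also varied between libraries of a group, as from 0 to 25 for paqr8 in lhb/lhcgr mutants.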
